A study of Mus musculus with 10 samples.

Results

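Costimulatory and checkpoint molecules are the surface and secreted proteins with which macrophages and other antigen-presenting cells raise or restrain T cell responses. The set described here holds 10 genes, given as a list by symbol (Cd274, Pdcd1lg2, Cd80, Cd86, Cd40, Tnfsf9, Icosl, Lgals9, Havcr2 and Vsir), of 36528 gene models in the count tables. All 10 were found by their Entrez identifiers, and all 10 passed the filter on low counts, with between 184 and 32818 reads in any library. The RNA came from tumour-associated macrophages, purified from C57Bl/6 mice with MC-38 tumours, a transplantable colon carcinoma line. The mice of 5 libraries had received anti-MerTK, an antibody against the receptor kinase MerTK, with which macrophages bind dying cells. Those of the other 5 had received anti-gp120, an antibody against an HIV envelope protein, as controls. RNA was taken after 24 h, and both groups carried the tumour and an antibody. The sources used here give no age, dose, sorting markers or pooling of animals. They do not say that libraries came from separate mice, so every p-value below reflects only how far these libraries spread, and that spread may be technical.

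T cells need a signal from their antigen receptor and a second, costimulatory signal. CD80 and CD86 give that second signal through CD28 on the T cell and are also bound by the inhibitory receptor CTLA-4, while PD-L1 (Cd274) and PD-L2 (Pdcd1lg2) bind the inhibitory receptor PD-1. TNF family members act beside them: 4-1BB ligand (Tnfsf9) stimulates activated T cells, and CD40 is the receptor by which helper T cells license antigen-presenting cells. Tumour macrophages can carry PD-L1, VISTA (Vsir) and the receptor TIM-3 (Havcr2), one of whose described ligands is galectin-9 (Lgals9).

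Tnfsf9 and Lgals9 were higher after anti-MerTK, by 1.53-fold and 1.34-fold, and none of the 10 genes was lower by the test used. That test was edgeR's quasi-likelihood test across 13588 genes with a Benjamini-Hochberg adjusted p under 0.05. It called 2 of 10 members, against 3.22% of all tested genes. Both were higher, where 1.85% of all genes were, and 0 of 10 were lower, where 1.38% were. An unadjusted p under 0.05 was reached by 6 of 10 members, against 20.9% of all genes. Cd40 was also higher in every anti-MerTK library than in any control library but did not pass the adjusted test. With Tnfsf9 and Lgals9, it made 3 of 10 members whose groups were separated in the upward direction, as were 3.26% of all genes. In the downward direction it was 0 of 10 members and 2.71% of genes, and in either direction 5.97% of genes. The members were chosen with earlier results of these data known, so these shares are a description and no test of the set. Estimates for Cd80, Cd86 and Havcr2 were below 0, and Cd274, the PD-L1 gene, gave a small difference with a wide interval.

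**Figure D1:**
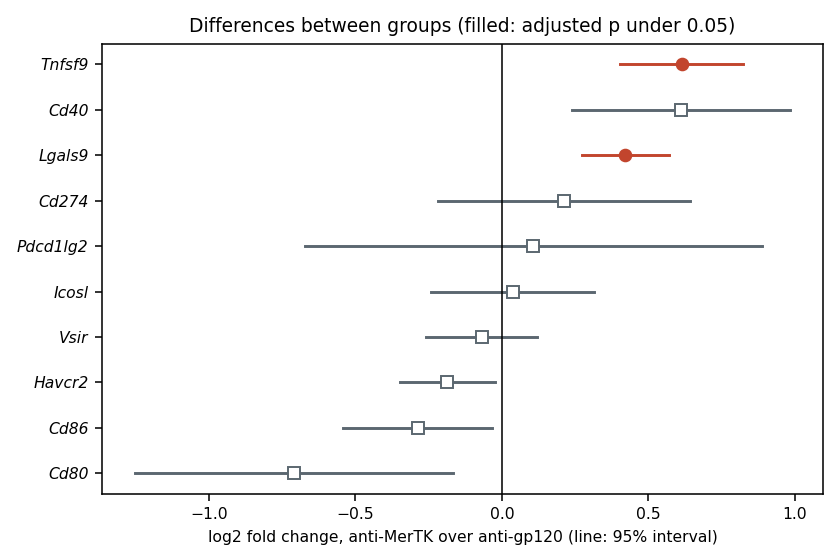
Log2 fold change of each of the 10 genes, anti-MerTK over anti-gp120, with its 95% interval from edgeR (5 libraries per group); filled circles mark adjusted p under 0.05. Tnfsf9 (0.61) and Lgals9 (0.42) are filled, Cd40 (0.61) has a wider interval above 0, and Cd80 (-0.71) lies lowest.

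The promoter window of Lgals9 is shown because it alone, among the members whose windows could be read, held interferon-type motif letters. RefSeq's table for GRCm38.p6 gives windows from 250 bases before to 50 bases after a start site, and 7 of the 10 members were in it. Tnfsf9, Cd40 and Cd86 were not, so whether their promoters hold such letters is not known here. The motifs searched on both strands were the interferon-stimulated response element (ISRE: GAAA, any 2 bases, GAAA), the gamma-activated site (GAS: TTC, any 3 bases, GAA) and the kB site (GGGA, any base, TTTCC). The matches found did not overlap each other or another motif. In the Lgals9 window (chr11:78984875-78985174, minus strand), capitals mark 2 matches to the ISRE in reverse complement. The Cd274 window (chr19:29367188-29367487, plus strand) is given for comparison and has no capitals, since none of the 3 motifs was found. It lies inside the RefSeq span of Cd274, which begins at 29362107, so it belongs to a start site downstream of that position. The sequence before 29362107 was not searched. The Cd80 window, not shown, also lies inside the span of its gene.
Lgals9: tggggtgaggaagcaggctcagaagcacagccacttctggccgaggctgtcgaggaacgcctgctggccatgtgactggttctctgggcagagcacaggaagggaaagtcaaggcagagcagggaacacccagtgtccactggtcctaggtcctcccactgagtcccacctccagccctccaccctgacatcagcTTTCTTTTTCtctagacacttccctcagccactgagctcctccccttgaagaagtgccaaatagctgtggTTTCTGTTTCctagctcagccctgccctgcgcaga
Cd274: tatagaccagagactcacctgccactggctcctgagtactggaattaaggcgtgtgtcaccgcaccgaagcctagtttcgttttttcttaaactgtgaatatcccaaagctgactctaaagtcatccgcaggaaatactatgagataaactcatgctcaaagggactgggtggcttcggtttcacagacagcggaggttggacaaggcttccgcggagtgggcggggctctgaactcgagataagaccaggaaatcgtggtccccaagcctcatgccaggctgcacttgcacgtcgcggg
The first Lgals9 match, TTTCTTTTTC, begins 55 bases before the start site, and the second, TTTCTGTTTC, begins 15 bases after it. At least 1 ISRE match was found in 3.44% of all 32851 windows of this length, and 2 or more in 0.225%. GAS letters were in 8.3% and kB letters in 0.411% of all windows, and in none of the 7 members. A match to these letters is a description of the sequence and does not show that a factor binds there.

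Among the stimulating ligands, Tnfsf9 (Entrez 21950, GRCm38 chromosome 17, 57105287 to 57107758) encodes 4-1BB ligand, which sustains activated T cells. Its level in the control libraries, replicates 1 to 5, was 44.99, 39.8, 49.6, 49.5 and 58.6 CPM, where CPM is the count corrected for library size. After anti-MerTK it was 75.9, 73.3, 79.2, 64.6 and 78.2 CPM. The lowest anti-MerTK library thus lay above the highest control library. The means were 48.5 ± 6.92 and 74.2 ± 5.85 CPM (SD, n = 5 each), a log2 fold change of 0.61 (SE 0.10, edgeR adjusted p = 0.0114), and 35 genes of 13588 had a smaller p. Its first part, up to position 57105942, overlaps the lincRNA gene Gm11110 on the other strand, which had 4.24 to 7.13 CPM. Use of strand in counting is not given, so reads of both genes may not be separated there. The gene of its receptor, Tnfrsf9, had 3.17 to 12.6 CPM in the controls and 5.56 to 16.4 CPM in anti-MerTK replicates 1 to 4, against 40.6 CPM in replicate 5. Tnfrsf9 therefore did not differ beyond the spread (log2 fold change 0.86, edgeR adjusted p = 0.408). In that same replicate 5, Ccr7, a gene of migrating dendritic cells, was at 28.3 CPM, against 2.47 to 5.89 CPM in the other anti-MerTK libraries. Ccr7 did not follow the other dendritic cell markers. Summed over 13 of them, Ccr7 included, the highest library was anti-MerTK replicate 2 (126 CPM), where Ccr7 was lowest, against 101 CPM in replicate 5. Tnfsf9 was at 78.2 CPM in replicate 5, within the 64.6 to 79.2 CPM of the other anti-MerTK libraries. Without anti-MerTK replicate 5 it had an edgeR adjusted p = 0.0117, and without anti-MerTK replicate 2 an edgeR adjusted p = 0.0203. The part of dendritic cells in the Tnfsf9 difference was not tested.

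**Figure D2:**
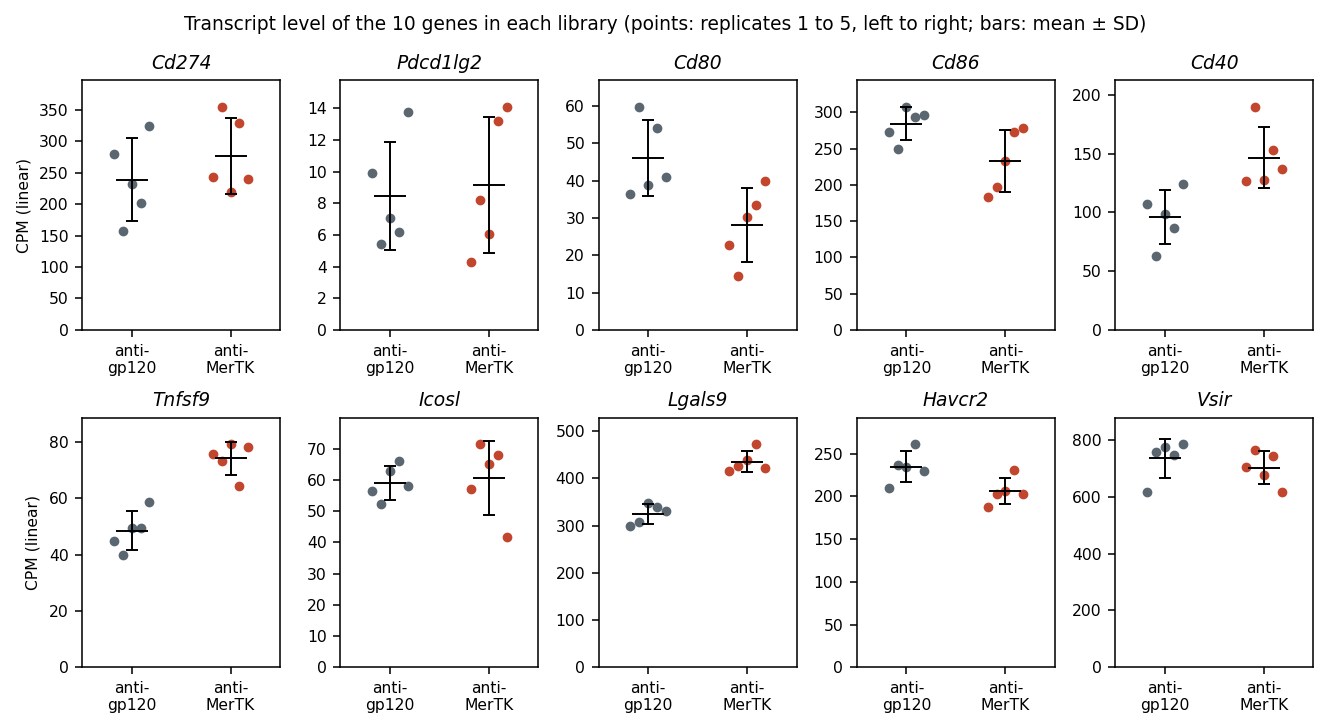
Level of each of the 10 genes in CPM on linear axes that start at 0, one point per library (replicates 1 to 5 from left to right in each group), with mean ± SD. The groups are separated for Tnfsf9, Lgals9 and Cd40 and overlap for the other 7 genes.

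Cd40 (Entrez 21939, chromosome 2, 165055614 to 165071654) encodes the TNF receptor through which T helper cells activate macrophages. The controls had 107, 62.7, 99.0, 86.9 and 124 CPM, and the anti-MerTK libraries 126, 190, 127, 153 and 137 CPM. The groups did not overlap, although the lowest anti-MerTK library exceeded the highest control library by little (126.4 and 123.9 CPM). The log2 fold change was 0.61 (SE 0.17, edgeR adjusted p = 0.0769), the same size as for Tnfsf9 with a larger error. The call depended on the setting: the adjusted p was 0.00812 with DESeq2, 0.0365 with limma-voom, 0.0194 with 1 surrogate variable and 0.0422 in edgeR without anti-gp120 replicate 5. Over all alternatives it ran from 0.00812 to 0.214. Without anti-gp120 replicate 2, the lowest library, the log2 fold change was 0.49.

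The classical CD28 ligands pointed the other way without passing the test. Cd80 (Entrez 12519, chromosome 16, 38457430 to 38495958), a CD28 and CTLA-4 ligand that is usually low on resting cells, had 36.5, 59.7, 38.8, 54.0 and 41.1 CPM in the controls. After anti-MerTK it had 22.6, 14.5, 30.2, 33.4 and 39.9 CPM, so all 5 libraries lay below the control mean, and the highest of them overlapped the controls. Its log2 fold change was -0.71 (SE 0.25, edgeR adjusted p = 0.135), with a 95% interval from -1.25 to -0.17. Over all alternatives the adjusted p of Cd80 ran from 0.0281 to 0.299. It was under the threshold in DESeq2 (0.0281), in limma-voom (0.0432) and in edgeR once a surrogate variable was added (0.0459). Cd86 (Entrez 12524, chromosome 16, 36568956 to 36666158), the more abundant CD28 ligand, had 273, 250.1, 307, 293 and 297 CPM in the controls and 183, 197, 233, 273 and 278 CPM after anti-MerTK. All 5 anti-MerTK libraries were below the control mean, with overlap, and the log2 fold change was -0.29 (SE 0.12, edgeR adjusted p = 0.185). Icosl (Entrez 50723, chromosome 10, 78069368 to 78079525), the ligand of the T cell receptor ICOS, had 52.2 to 66.1 CPM in the controls and 41.7 to 71.3 CPM after anti-MerTK. Its log2 fold change was 0.04 with a 95% interval from -0.24 to 0.31, and its sign changed when single libraries were left out.

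Of the inhibitory PD-1 ligands, Cd274 (Entrez 60533, chromosome 19, 29362107 to 29388095) encodes PD-L1. It had 279, 156, 232, 202 and 324 CPM in the controls and 242, 354, 219, 329 and 240.0 CPM after anti-MerTK. Both groups spread widely (coefficients of variation 27.4% and 21.8%) and overlapped over most of their range. The log2 fold change was 0.21 (SE 0.20, edgeR adjusted p = 0.570). Its 95% interval, from -0.22 to 0.64, holds both a 1.56-fold rise and no change. Pdcd1lg2 (Entrez 58205, chromosome 19, 29410919 to 29472927) encodes PD-L2 and lies 22823 bases downstream of Cd274 in the same orientation. It was the scarcest member, at 9.92, 5.45, 7.08, 6.20 and 13.8 CPM in the controls and 4.30, 8.18, 6.07, 13.2 and 14.1 CPM after anti-MerTK. Its log2 fold change of 0.11 (SE 0.35, edgeR adjusted p = 0.890) changed sign in several settings. The ranges of the 2 groups nearly coincided.

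Vsir (Entrez 74048, chromosome 10, 60346851 to 60430294) encodes VISTA, an inhibitory ligand and receptor of myeloid and T cells. It ranged from 616 to 784 CPM in the controls, with a median of 758 CPM, and from 617 to 765 CPM after anti-MerTK, with a median of 705 CPM. The log2 fold change was -0.07 (95% interval -0.26 to 0.12, edgeR adjusted p = 0.688). Vsir lies inside Cdh23, a cadherin gene on the opposite strand that was counted at 247 to 343 CPM. Without strand, reads of Vsir and Cdh23 cannot be told apart where they overlap, so the separate levels of both are uncertain.

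Lgals9 (Entrez 16859, chromosome 11, 78962979 to 78984924) encodes galectin-9, a carbohydrate-binding protein. The control libraries had 299, 307, 348, 338 and 331 CPM, and the anti-MerTK libraries 416, 426, 439, 472 and 422 CPM. Every anti-MerTK library was above every control library, and the spread within groups was the smallest among the members (coefficients of variation 6.44% and 5.08%). The means were 325 ± 20.9 and 435 ± 22.1 CPM (SD, n = 5 each), with a log2 fold change of 0.42 (SE 0.07, edgeR adjusted p = 0.0115). Havcr2 (Entrez 171285, chromosome 11, 46454931 to 46481255) encodes TIM-3, an inhibitory receptor that macrophages and dendritic cells also carry. It had 210.1, 237, 235, 261 and 230 CPM in the controls and 188, 203, 207, 231 and 203 CPM after anti-MerTK. All 5 anti-MerTK libraries lay below the control mean, the groups overlapped, and the log2 fold change was -0.19 (SE 0.08, edgeR adjusted p = 0.182).

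The balance between members was compared within each library as the ratio of their RPKM values (counts scaled to gene length and library size, as adjusted by the authors), which does not depend on the scaling of the library. There were 4 ratios, tested by a two-sided exact permutation test over all assignments of libraries to groups, whose smallest p is 0.00794, with Benjamini-Hochberg adjustment over the 4. Lgals9 to Havcr2 was 2.87, 2.62, 2.99, 2.62 and 2.92 in the controls and 4.47, 4.24, 4.30, 4.13 and 4.20 after anti-MerTK. The groups were far apart, and the log2 ratio rose from 1.49 ± 0.09 to 2.09 ± 0.04 (SD, n = 5 each, exact permutation p = 0.00794, adjusted p = 0.0317). This ratio holds Lgals9 and is not independent of its call. Cd274 to Cd80 went from a median of 6.66 (2.91 to 8.78) to 10.96 (6.69 to 27.2), with overlap (log2 difference 0.997, n = 5 each, exact permutation p = 0.0714, adjusted p = 0.127). Cd80 to Cd86 had medians of 0.120 and 0.107 (log2 difference -0.46, n = 5 each, exact permutation p = 0.0952, adjusted p = 0.127). Cd274 to Pdcd1lg2 had medians of 26.95 and 33.9 (log2 difference 0.18, n = 5 each, exact permutation p = 0.587, adjusted p = 0.587). The last ratio spread far more after anti-MerTK, from 16 in replicate 5 to 52.9 in replicate 1, than in the controls, from 22.1 to 30.8.

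**Figure D3:**
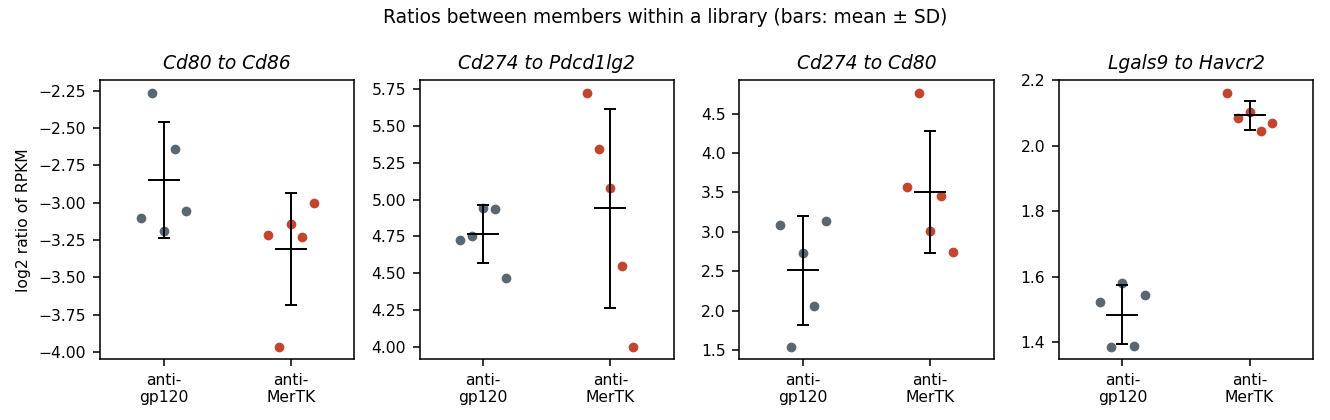
Log2 ratio of RPKM between members of 4 pairs in each library, with mean ± SD per group (axes do not start at 0). Only the Lgals9 to Havcr2 groups are apart; anti-MerTK replicate 2 is the lowest point for Cd80 to Cd86 and the highest for Cd274 to Cd80.

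Cd274 and Cd40 varied together from library to library. After subtraction of each group's mean from log2 CPM, their Pearson r was 0.96 over 10 libraries (exact permutation p = 0.000278 over all orders within groups, adjusted p = 0.0125 over 45 pairs). Spearman's rho was 0.89 (exact permutation p = 0.00222, adjusted p = 0.100), which did not pass. Without anti-gp120 replicates 5 and 2, the libraries farthest from the median of Cd274, r was 0.93. Leaving out each library in turn gave r of 0.94 to 0.98 and an exact permutation p adjusted over the pairs of 0.0156 to 0.0625, which passed in 3 of the 10 cases, those without anti-MerTK replicates 1, 3 or 5. In the raw values the control libraries ran from replicate 2 (156 CPM of Cd274 and 62.7 CPM of Cd40) to replicate 5 (324 and 124 CPM). Ordered by Cd274, the anti-MerTK libraries ran from replicate 3 (219 and 127 CPM) to replicate 2 (354 and 190 CPM), with replicate 1 out of order (242 and 126 CPM). No other of the 45 pairs passed, and 5 pairs including this one had an unadjusted exact permutation p under 0.05. Cd80 and Cd40 gave a Pearson r of -0.64 and a Spearman rho of -0.49 (exact permutation p = 0.0293 and 0.160, adjusted p = 0.333 and 0.513), with r = -0.57 without the 2 libraries farthest from the median of Cd80.

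**Figure D4:**
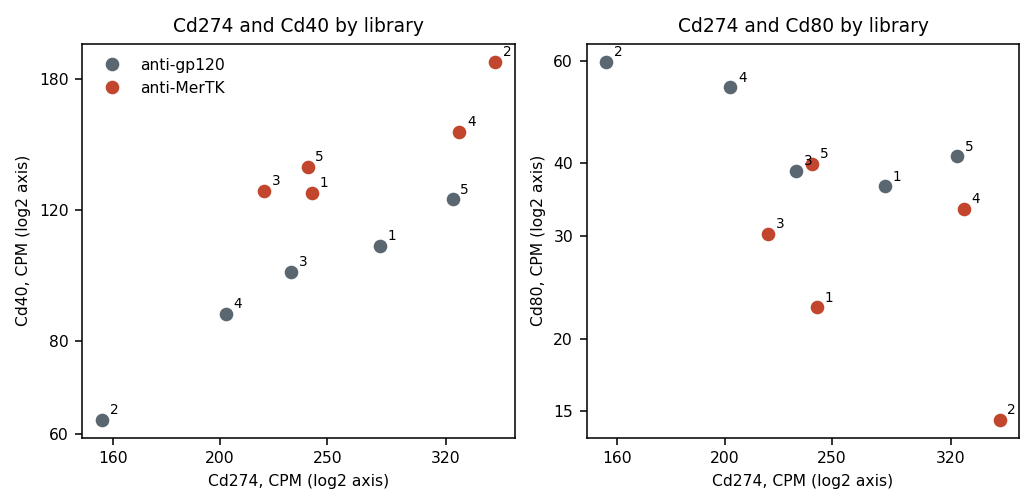
Cd274 against Cd40 (left) and against Cd80 (right) in CPM on log2 axes, one point per library, labelled with its replicate number. The control libraries stand in the same order for Cd274 and Cd40, the anti-MerTK libraries do not (replicate 1 has the lowest Cd40 but not the lowest Cd274), and anti-MerTK replicate 2 combines the highest Cd274 (354 CPM) with the lowest Cd80 (14.5 CPM).

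The genes most like each member over the 10 libraries, by Pearson r of log2 CPM among 10097 genes, are given as a description. These values share the same libraries and were picked as the highest, so they carry no test. Unlike in the correlations above, group means were not subtracted. A shared difference between the groups therefore raises r by itself, also where libraries within a group do not vary together. Cd274 was followed most closely by Gbp6, an interferon-induced GTPase (r = 0.98), and Uvrag (r = 0.96). Cd40 was followed by the interferon-stimulated genes Rtp4 and Ifi44 (r = 0.97 for both), which had log2 fold changes of 0.91 and 0.90 (edgeR adjusted p = 0.0256 and 0.0497). Lgals9 was followed by Oas1g, an oligoadenylate synthetase (r = 0.93), and Bst2, the antiviral protein tetherin (r = 0.93), both called higher (log2 fold changes 1.23 and 0.65, edgeR adjusted p = 0.00441 and 0.0114). Tnfsf9 was followed by Dnttip1 (r = 0.96) and Gnb2, a G protein subunit (r = 0.95), neither of which passed. Cd80 was followed by Bcl2l11, the apoptosis promoter Bim (r = 0.99), and Sidt2 (r = 0.98). Cd86 was followed by Taf13 (r = 0.96) and Gm2a (r = 0.95), and Havcr2 by Phf20l1 (r = 0.96) and Ankrd13c (r = 0.95). The likeness was weaker for Icosl, with R74862 (r = 0.91) and Tnfrsf11a (r = 0.89), and for Pdcd1lg2, with Tceanc (r = 0.85) and Ly6i (r = 0.82). Vsir was followed by Lrmp (r = 0.94) and Ctdsp1 (r = 0.94).

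Levels of different genes were set side by side only per length. In the controls Lgals9 was highest at 205 ± 14.4 RPKM, followed by Vsir at 98.8 ± 9.25, Cd86 at 80.9 ± 7.05, Havcr2 at 73.4 ± 5.78 and Cd274 at 65.9 ± 18.2 RPKM (SD, n = 5). Cd40 followed at 50.8 ± 12.3, Tnfsf9 at 36.0 ± 5.30, Icosl at 21.6 ± 2.12, Cd80 at 11.4 ± 2.46 and Pdcd1lg2 at 2.49 ± 1.01 RPKM (SD, n = 5). The place of Vsir is uncertain in both groups, since its reads and those of Cdh23 may not be separated where these genes overlap. Neighbours from Vsir down to Tnfsf9 had overlapping ranges, while Lgals9, Tnfsf9, Icosl and Cd80 each stood apart from the next gene in the order. Compared within each control library, Vsir lay above Cd86, Cd274 above Cd40 and Cd40 above Tnfsf9 in 5 of 5. Cd86 lay above Havcr2 in 4 of 5 and Havcr2 above Cd274 in 3 of 5. After anti-MerTK, Cd40 came to the third place at 77.6 ± 13.7 RPKM, and Cd274 to the fourth at 76.4 ± 16.4 RPKM (SD, n = 5). Cd86 and Havcr2 came after them, at 66.4 ± 12.3 and 64.6 ± 4.69 RPKM (SD, n = 5). The ranges of these 4 genes overlapped with those of their neighbours in the order. Within libraries, Cd40 lay above Cd274 in 4 of 5, Cd274 above Cd86 in 3 of 5 and Cd86 above Havcr2 in 3 of 5. The order among the 4 was thus not the same in every library. Vsir lay above Cd40, and Havcr2 above Tnfsf9, in 5 of 5. Lgals9 rose to 275 ± 13.3 and Tnfsf9 to 55.2 ± 4.52 RPKM, whereas Cd80 was at 6.98 ± 2.45 RPKM (SD, n = 5) and its range overlapped that of Pdcd1lg2. Within libraries Cd80 still lay above Pdcd1lg2 in 5 of 5.

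**Figure D5:**
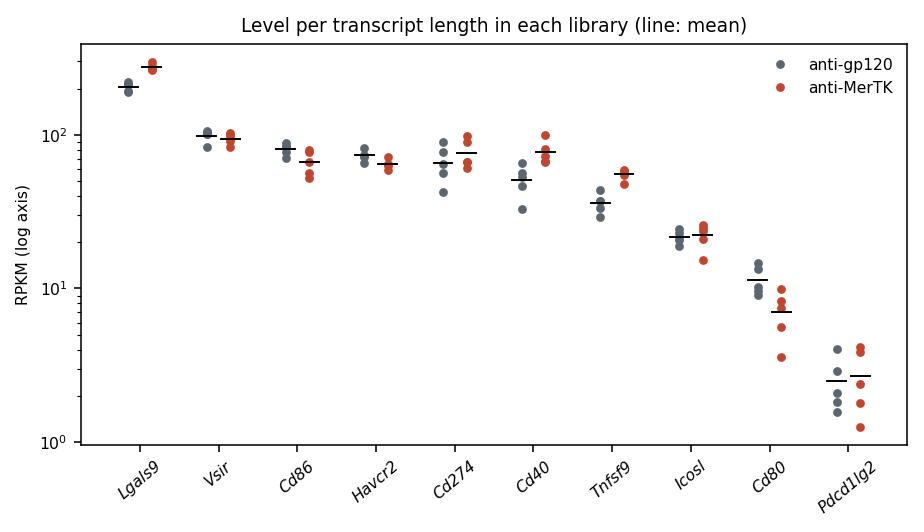
Level per length of the 10 genes in RPKM on a log axis, ordered by the control mean, one point per library and a line at the mean. Lgals9 is highest in both groups (205 and 275 RPKM) and Pdcd1lg2 lowest (2.49 and 2.69 RPKM).

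Genes around these members moved in part. Of 9 tested genes for binding partners of the members 0 passed in edgeR in either direction, against 3.22% of all tested genes. An unadjusted p under 0.05 was reached by 0 of the 9, against 20.9% of all genes. The median log2 fold change of the 9 was 0.16 (all tested genes: -0.01). Receptors of T cells among them differed in level, given here in CPM, which does not correct for gene length. Tnfrsf9 was the highest of them, at 8.82 ± 4.24 and 16.03 ± 14.3 CPM (SD, n = 5), as described above, whereas Pdcd1 (PD-1) was at 0.694 ± 0.258 and 0.969 ± 0.176 CPM and Icos was at 0.563 ± 0.472 and 0.228 ± 0.302 CPM (SD, n = 5). Cd40lg, the ligand of CD40, had 0 reads in every library. Selplg, a partner described for VISTA, was at 325 ± 29.9 and 358 ± 33.6 CPM (SD, n = 5, edgeR adjusted p = 0.378).

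Of 25 tested genes for other costimulatory and checkpoint molecules, 2 were higher and 0 lower, with a median log2 fold change of 0.19. Of all tested genes, 1.85% were called higher and 1.38% lower. Among the 25, 9 had an unadjusted edgeR p under 0.05, against 20.9% of all genes. Tnfsf10, the death ligand TRAIL, rose from 23.5 ± 4.39 to 43.1 ± 10.6 CPM (SD, n = 5, log2 fold change 0.87, edgeR adjusted p = 0.0256). Tnfsf8, the CD30 ligand, rose from 8.59 ± 1.47 to 12.3 ± 1.25 CPM (SD, n = 5, log2 fold change 0.51, edgeR adjusted p = 0.0437). Its groups overlapped slightly (highest control library 10.47 CPM, lowest anti-MerTK library 10.40 CPM). Neither Tnfsf14, known as LIGHT, at a log2 fold change of -0.40 nor Tnfsf15 at 0.63 passed (edgeR adjusted p = 0.0904 and 0.102). Tnfsf10 lost its call without anti-gp120 replicates 2, 3 or 4 or anti-MerTK replicates 1 or 4 (edgeR adjusted p up to 0.0791). Among the leave-one-out fits, Tnfsf8 kept its call only without anti-gp120 replicate 5 or anti-MerTK replicate 5 (edgeR adjusted p up to 0.108 in the others).

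Among 18 genes of CD40 signalling and the non-canonical NF-kB pathway 0 passed in edgeR, against 3.22% of all tested genes. An unadjusted p under 0.05 was reached by 3 of the 18, against 20.9% of all genes. The median log2 fold change of the 18 was -0.03. DESeq2, limma-voom and 1 surrogate variable also called 0 of them. The adaptor genes Traf2 and Traf1 had log2 fold changes of 0.26 and 0.30, and Ikbkg and Birc2 of -0.14 and -0.19 (edgeR adjusted p between 0.130 and 0.250). Traf2 passed without anti-gp120 replicate 5 (edgeR adjusted p = 0.0265).

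Of 23 genes known to act on PD-L1 transcription, signalling or stability, 1 was higher and 2 were lower, with a median log2 fold change of -0.07. The shares over all tested genes were 1.85% higher and 1.38% lower. Among the 23, 6 had an unadjusted edgeR p under 0.05, against 20.9% of all genes. Stat2, a transducer of type I interferon signals, rose from 54.6 ± 10.98 to 125 ± 52.1 CPM (SD, n = 5, log2 fold change 1.19, edgeR adjusted p = 0.0452). The anti-MerTK libraries ran from 59.3 CPM in replicate 5 to 205 CPM in replicate 2. They overlapped the controls, whose highest library had 67.8 CPM. Cmtm4, which with its paralog Cmtm6 protects PD-L1 protein from degradation, fell from 31.9 ± 3.74 to 23.4 ± 3.32 CPM (SD, n = 5, log2 fold change -0.45, edgeR adjusted p = 0.0435). Ifngr1, a chain of the interferon gamma receptor, fell from 251.7 ± 31.2 to 186 ± 22.5 CPM (SD, n = 5, log2 fold change -0.43, edgeR adjusted p = 0.0449). Its groups overlapped slightly (lowest control library 209 CPM, highest anti-MerTK library 212 CPM). Irf9, a partner of STAT2, had a log2 fold change of 0.31 with groups that did not overlap (edgeR adjusted p = 0.0541). Stat2 and Cmtm4 kept their calls in 2 of 10 leave-one-out fits, those without anti-gp120 replicate 5 or anti-MerTK replicate 5. Ifngr1 lost its call without anti-gp120 replicates 2, 3 or 4 or anti-MerTK replicates 1, 2 or 3 (edgeR adjusted p up to 0.128).

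The libraries held 33159858 to 46108687 counted reads. Macrophage markers were abundant, with Csf1r at 2224 ± 231 and 1972 ± 209 CPM (SD, n = 5). Of 8 tested macrophage markers, 4 had an estimate above 0, and the median log2 fold change was -0.03. The Fc receptor gene Fcgr1, from 792 ± 115 to 1230.0 ± 206 CPM (SD, n = 5), rose with groups that did not overlap (log2 fold change 0.64, edgeR adjusted p = 0.0247). Cd68, at 874 ± 27.1 and 999.99 ± 57.0 CPM (SD, n = 5), was also apart between groups but did not pass (log2 fold change 0.19, edgeR adjusted p = 0.122). Mertk itself was at 91.1 ± 14.3 and 78.9 ± 4.96 CPM (SD, n = 5, edgeR adjusted p = 0.263). The antibody acts on the protein, so this checks no label. Summed over each list, markers of T cells lay at 8.30 to 14.6 CPM in the controls and 3.06 to 12.2 CPM after anti-MerTK, and those of NK cells were at most 1.68 CPM. B cell markers gave 19.8 to 40.2 and 17.6 to 30.5 CPM, neutrophil markers 60.6 to 104 and 65.2 to 88.1 CPM, and fibroblast and endothelial markers 106 to 142 and 85.5 to 125 CPM. In the epithelial list Cdx2 had 0 reads, and Cdh1 (46.5 ± 10.01 and 28.2 ± 3.66 CPM, SD, n = 5) was called lower (edgeR adjusted p = 0.0244). The others were too low to be tested. Epcam had means of 0.046 and 0.027 CPM and Krt18 of 0.045 and 0.028 CPM. Krt8 (0.278 ± 0.582 and 0.574 ± 0.773 CPM, SD, n = 5) and Krt19 (0.0049 and 0.089 CPM, at most 6 reads in a library) had the higher mean after anti-MerTK. Whether the Cdh1 difference reflects tumour cell RNA was not tested. Dendritic cell markers, a cell type that also makes many of these ligands, summed to 47.1 to 95.01 CPM in the controls and 79.9 to 126 CPM after anti-MerTK, with 0 of 10 tested markers called. Of these 10, 8 had an estimate above 0, and the median log2 fold change was 0.48. Markers of conventional type 1 dendritic cells were present, with Xcr1 at 21.7 ± 8.50 and 28.1 ± 14.3 CPM, Clec9a at 13.4 ± 8.27 and 19.2 ± 11.6 CPM and Batf3 at 14.1 ± 3.86 and 19.3 ± 4.38 CPM (SD, n = 5). Flt3, Zbtb46, Siglech and Itgae, 4 of the 13 listed, stayed under 1 CPM in every library. Monocyte markers summed to 532 to 1314 and 748 to 1573 CPM, with 7 of 8 estimates above 0 and a median log2 fold change of 0.64. Of these 8, 1 was called higher, Plac8 (edgeR adjusted p = 0.0346). For these marker counts, the shares over all tested genes were 1.85% called higher and 1.38% lower. The part of dendritic cells and monocytes in the differences above was not tested, and in such bulk RNA fewer cells of a type and less RNA per cell cannot be told apart.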

How the data were processed

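RNA-seq was made from polyadenylated RNA of 10 libraries, 5 per antibody, per the labels. The authors aligned reads with GSNAP to GRCm38, per the submitters' processing notes. The aligner version, annotation, strand and counting tool: not given in the sources used here. Per the file headers, the deposited counts hold only uniquely aligned reads of a gene model, so genes with near-identical copies can lose reads. The deposited RPKM values are size-factor-adjusted, per the file headers, and were used for ratios and for levels between genes. Of 36528 identifiers, 31049 were named from RefSeq (GRCm38.p6) and 78 from GENCODE M21.

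Counts were tested with edgeR 4.0.16 (limma 3.58.1, R 4.3.3): filterByExpr, TMM, robust quasi-likelihood, treatment as the only term, Benjamini-Hochberg adjustment over 13588 genes. SE is the size of the log2 fold change over the square root of F and is approximate. The procedure was checked on simulated counts. Exact permutation tests and correlations used numpy 2.4.6, with log2 CPM at a prior count of 2. With 33159858 to 46108687 reads per library, the scarcest member had at least 184 reads, so the spread between libraries limits precision more than counting does.

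Named genes are the 10 members, Mertk, the 4 of smallest p per list and the 2 most correlated genes per member (mean log2 CPM of at least 1). Ccr7, Cdh23, Gm11110, Csf1r, Fcgr1, Cd68, Cdh1, Plac8, Cd40lg, Cdx2, Epcam, Krt8, Krt18, Krt19, Xcr1, Clec9a, Batf3, Flt3, Zbtb46, Siglech and Itgae were named outside that rule, after their values were seen. Members and lists were chosen with earlier results of these data known. Alternatives were other normalizations (RLE, upper quartile, the authors' size factors), no filter or 5 CPM in 5 libraries, DESeq2 1.42.0, limma-voom with quality weights, 1 surrogate variable (sva 3.50.0), leaving out each library, and 8 libraries without anti-MerTK replicates 2 and 5. The labels number no replicates and give no batch. Replicate numbers follow the order of accession and pair nothing.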

Additional observations from a re-analysis of the deposited data

Results flagged for a closer look

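Of the 28 groups of 5 values checked (10 members and 4 ratios in both groups), 2 held a sample far from the others, where chance flags about 1 in 20 groups. Vsir was at 616 CPM in anti-gp120 replicate 1, below the next control library by more than the other 4 differed. The log2 ratio of Cd80 to Cd86 was -3.96 in anti-MerTK replicate 2, the library with the lowest Cd80, while the other anti-MerTK libraries lay close together.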

How the results depend on the processing

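Tnfsf9 and Lgals9 were called higher in all 19 alternatives, with log2 fold changes of 0.55 to 0.69 and 0.39 to 0.45 and adjusted p up to 0.0422, and Cd274, Cd86, Havcr2 and Vsir were called in none. The number of members called lower was 1 (Cd80) with DESeq2, limma-voom and 1 surrogate variable, against 0 in edgeR. The number called higher was 2 to 3 when single libraries were left out. Over all genes, 438 were called in edgeR, 1168 with DESeq2, 1036 with limma-voom, 844 with 1 surrogate variable, 204 in 8 libraries and 70 to 654 with single libraries left out. Other costimulatory genes higher numbered 4 with DESeq2, 5 with 1 surrogate variable, 1 in 8 libraries and 0 to 3 with libraries left out, and lower 1 with DESeq2 and 0 to 1 with libraries left out. Genes acting on PD-L1 that were higher numbered 2 with upper quartile, 0 without a filter, 3 with the 5 CPM filter, DESeq2, limma-voom and 1 surrogate variable, and 0 to 3 with libraries left out. Those lower numbered 0 in 8 libraries and 0 to 2 with libraries left out, and CD40 signalling genes higher 0 to 1. The sign of Pdcd1lg2 reversed with limma-voom (-0.026) and in 8 libraries (-0.11), and it ran from -0.10 to 0.36 with libraries left out, where Icosl ran from -0.027 to 0.14. The Lgals9 to Havcr2 log2 difference was 0.62 in 8 libraries, where its adjusted p of 0.0714 is the smallest that 56 assignments and 4 ratios give when 1 ratio reaches it, and 0.58 to 0.63 with libraries left out. Cd274 to Pdcd1lg2 ran from -0.020 to 0.41, reversing without anti-MerTK replicate 1. The number of correlated pairs was 0 to 1 with libraries left out. The causes of these changes were not tested. No paired analysis was possible because the labels give no replicate numbers.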
